A study of Mus musculus with 2 samples.

Results

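The genes described here encode receptors of the interleukin 1 (IL-1) and interleukin 18 (IL-18) family, an antagonist (Il1rn) and a binding protein (Il18bp). They are Il1r1, Il1r2, Il1rl1, Il1rap, Il1rn, Il18r1, Il18rap and Il18bp, chosen by name from the symbol column of the table. All 8 were found among its 24091 genes, and 7 averaged 1 CPM or more over both libraries (CPM being counts per 1000000, after scaling); Il1rn did not. Reads were counted per gene in 2 RNA-seq libraries of mouse spleen γδ T cells, which are T lymphocytes whose antigen receptor is built from a γ and a δ chain. One library carries the label freshly isolated, and the other IL-2 expanded, which the protocols describe as activation by anti-CD3 on the plate and anti-CD28 in solution with recombinant mouse IL-2 at 100 U/ml, and an expansion of 5 days. Both libraries carry the same protocol text, in which RNA is said to come from cultured cells, so only the treatment label sets the freshly isolated cells (here the fresh library) apart. Activation, culture and IL-2 cannot be told apart. The sources used here give no strain, age or genotype.

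IL-1, IL-18 and IL-33 are cytokines of 1 family that act on lymphocytes through receptors of a shared build. Each receptor pairs a chain that binds the cytokine (Il1r1 for IL-1, Il18r1 for IL-18, Il1rl1, also called ST2, for IL-33) with an accessory chain (Il1rap for IL-1 and IL-33, Il18rap for IL-18), and the intracellular domains of both chains recruit the adaptor MyD88. The family also has brakes: Il1r2 is a decoy receptor that binds IL-1 without signalling, Il1rn is an antagonist that occupies the IL-1 receptor, and Il18bp is a secreted protein that captures IL-18. Among γδ T cells, those that make IL-17 are known to respond to IL-1 with IL-23, and those that make interferon γ to IL-18 with IL-12.

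The total count was 20379385 in the fresh and 22204099 in the expanded library, so that 1 count stood for 0.0465 and 0.0476 CPM. Each group is 1 library, so differences have no replicate check and no test. All intervals are exact, at 95%, and account for counting error alone; without molecular identifiers a read need not be a separate molecule. The 4 CD3 chains of the T cell receptor complex, which served to check the T cell label, summed to 2231 CPM in fresh and 2094 CPM in expanded cells. None of the 4 was at least 2-fold apart, though Cd247 was 1.84-fold lower (447 and 243 CPM). CD3 chains do not set γδ T cells apart from other T cells, and the constant genes of the γ and δ chains were not analysed here. Markers of other spleen cells differed between the libraries. For the counts of markers here and below, 25.0% of all genes averaging 1 CPM or more were at least 2-fold lower. On the higher side it was 22.4%. All 14 monocyte and macrophage markers were at least 2-fold lower in the expanded library, with a summed level of 968 CPM in fresh and 3.76 CPM in expanded cells, and 9 of them (Vcam1, Sirpa, Lyz2, C1qa, C1qb, C1qc, Cd163, Slc40a1 and Spic) had 0 counts in the expanded library. Among markers of B and plasma cells, 8 of 9 measured were at least 2-fold lower (1095 and 303 CPM in sum). That sum rested on Jchain in fresh cells (784 CPM, with 0 counts in expanded cells). In expanded cells it rested on Xbp1 (165 CPM in fresh and 294 CPM in expanded cells), the 1 that was not lower. All 5 measured dendritic cell markers were also at least 2-fold lower (362 and 5.47 CPM). The part of these cells in the values below was not tested. In bulk RNA, fewer cells of a type and less RNA per cell cannot be told apart.

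**Figure D1:**
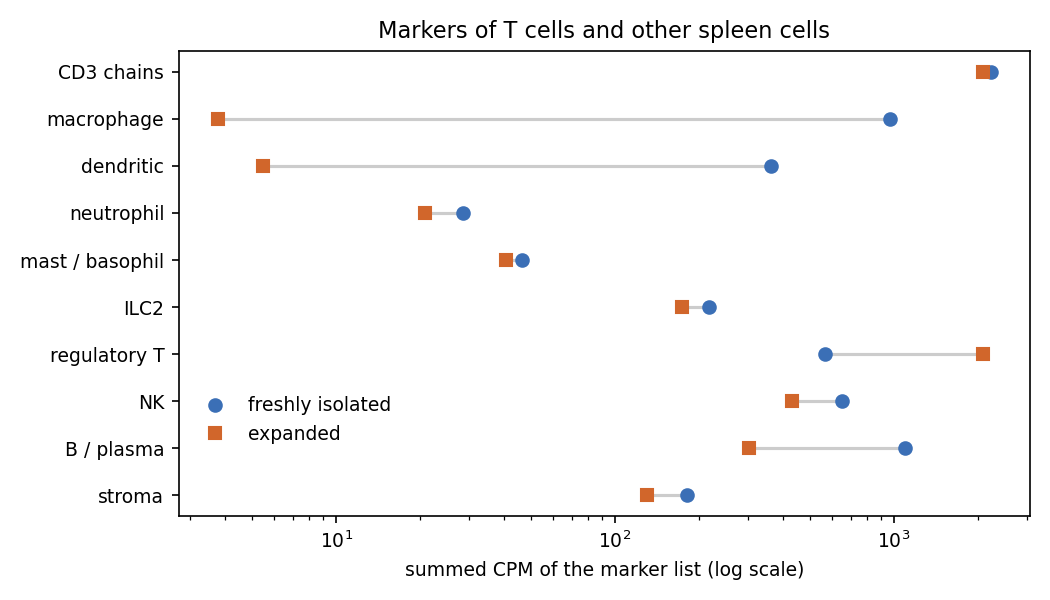
Summed CPM (log scale) of fixed marker lists in the freshly isolated (circles) and expanded (squares) library, 1 library each. The CD3 chains lie together at 2231 and 2094 CPM, while the macrophage list runs from 968 to 3.76 CPM.

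Within the family, the chain that binds IL-1 was near the floor of detection in the expanded library while its decoy was higher. The IL-33 receptor chain was higher at a low level, and of the IL-18 receptor the binding chain was lower and the accessory chain nearly level. Of the 7 measured genes, Il1r2 and Il1rl1 (2) lay 4-fold or more above their fresh level and Il1r1 and Il18r1 (2) lay 4-fold or more below it. The background over all 11715 genes measured was 8.92% at 4-fold or more higher and 13.5% at 4-fold or more lower. At a threshold of 2-fold the same 4 genes were counted, beside 22.4% higher and 25.0% lower over all genes. With 7 genes these counts are a description and show no more than which members lay on which side. The median log2 fold of the 7 was -0.19, beside 0.035 over all genes measured.

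**Figure D2:**
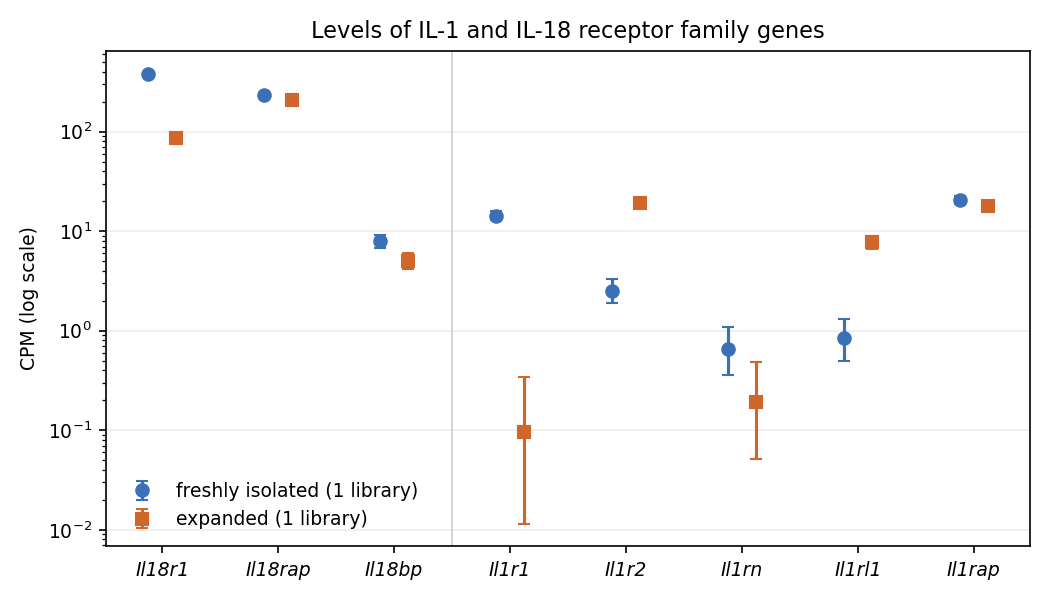
CPM (log scale) of the 8 genes in the freshly isolated (circles) and expanded (squares) library, 1 library each, with exact 95% counting intervals as bars. Il18r1 and Il1r1 are lower in the expanded library, Il1r2 and Il1rl1 are higher, and Il18rap (231 and 207 CPM) and Il1rap (20.6 and 18.03 CPM) lie close together.

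Il18r1 encodes the chain that binds IL-18. It lies on chromosome 1 (chr1:40465552-40500854, build GRCm38, plus strand) and gave 8118 counts (377 CPM) in fresh cells against 1813 (86.2 CPM) after expansion. The level in expanded cells was 4.37-fold lower (interval 4.16 to 4.6). Il18rap, the accessory chain, lies next to it (chr1:40515362-40551705) and had 4963 counts (231 CPM) and 4354 counts (207 CPM), which was 1.11-fold lower (interval 1.07 to 1.16). The binding chain thus differed between the libraries and the accessory chain hardly did.

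The ratio of Il18r1 to Il18rap does not depend on how the libraries are scaled. Per kilobase of the deposited gene length, Il18r1 stood at 2.23 times Il18rap in the fresh library (interval 2.15 to 2.31) and at 0.567 times Il18rap in the expanded library (0.537 to 0.599). The order of both chains was therefore opposite in the 2 libraries, with the binding chain in excess in fresh cells and the accessory chain in excess in expanded cells. Between libraries the ratio differed 3.93-fold (interval 3.68 to 4.20). Both chains together held 92.8% of all counts of the 8 genes in fresh cells (92.4 to 93.3, Clopper-Pearson) and 85.4% after expansion (84.5 to 86.2).

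Il18bp, the secreted protein that captures IL-18, lies on chromosome 7 (chr7:102015077-102018690, minus strand). Its level was 7.94 CPM (171 counts) in fresh and 5.04 CPM (106 counts) in expanded cells, 1.58-fold lower (interval 1.23 to 2.03), and so under 2-fold. Of the 5 measured markers of NK cells, other cells that carry the IL-18 receptor, 3 were at least 2-fold lower in the expanded library. Over all genes 25.0% were. The 3 were Ncr1, which encodes NKp46 (24.6 and 0.19 CPM), Klrb1c (179 and 53.3 CPM) and Klre1 (67.3 and 2.66 CPM). Eomes (370 and 362 CPM) and Itga2 (10.8 and 11.0 CPM) lay between. The list summed to 652 and 429 CPM, which rested mostly on Eomes, a factor that γδ and NK cells share. The part of NK cells in the value of Il18r1 was not tested.

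Il1r1 encodes the receptor chain through which IL-1α and IL-1β signal (chr1:40225080-40316177, plus strand). Fresh cells gave 309 counts (14.4 CPM) and expanded cells 2 counts (0.0951 CPM). This was 151-fold lower, with a wide interval of 41.4 to 1251 because 2 counts set the lower level. Il1r1 was the member furthest down. Of 3 measured stromal and endothelial markers, Stab2 (11.8 and 0.0951 CPM) and Pdgfrb (4.88 and 0.143 CPM) were lower in the expanded library. Pecam1 lay between (163 and 128 CPM), and the list summed to 181 CPM in fresh and 130 CPM in expanded cells. The part of these and other cells in the level of Il1r1 was not tested.

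The decoy Il1r2 lay on the other side (chr1:40084768-40125226, plus strand). Fresh cells gave 54 counts (2.51 CPM) and expanded cells 403 (19.2 CPM), which is 7.64 times as much (interval 5.74 to 10.35). In the GENCODE M21 annotation its longest reading frame has 410 codons, beside 576 for Il1r1; as background, the decoy lacks the intracellular signalling domain. Per kilobase, Il1r1 stood at 1.52 times Il1r2 in the fresh library (interval 1.14 to 2.07), and in the expanded library Il1r2 stood at 758 times Il1r1 (interval 209 to 6282). In expanded cells nearly all counts of the 2 IL-1 receptors were thus of the decoy.

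Neutrophils are also known to carry Il1r2. Of 12 neutrophil markers, 9 had 0 counts in the expanded library, but S100a8 (5 counts), S100a9 (8), Mpo (13) and Cxcr2 (5) were already low in the fresh one. The list summed to 28.5 CPM in fresh and 20.8 CPM in expanded cells. Of the 3 that were measured, Csf3r (10.1 CPM and 0 counts) and Mmp9 (16.8 and 3.0 CPM) were lower and Ly6g was higher, with 0 counts in fresh and 17.8 CPM in expanded cells. The markers thus lay on both sides, and the part of neutrophils in the level of Il1r2 was not tested.

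Il1rap, the accessory chain that the receptors of IL-1 and IL-33 share, lies on chromosome 16 (chr16:26581705-26725147, plus strand). It had 443 counts (20.6 CPM) and 379 counts (18.03 CPM), a ratio of 0.876 with an interval of 0.762 to 1.01 that takes in equal levels. Per kilobase, Il1r1 stood at 1.18 times Il1rap in the fresh library (interval 1.01 to 1.36) and Il1rap at 112 times Il1r1 in the expanded library (30.9 to 931). The shared chain was at a like level in both libraries while the IL-1 binding chain had 2 counts in the expanded one.

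Il1rl1 encodes ST2, the binding chain for IL-33 (chr1:40429570-40465414, plus strand). Fresh cells gave 18 counts (0.836 CPM) and expanded cells 162 (7.71 CPM), a level 9.22 times as high (interval 5.65 to 15.9). The gene gives a membrane receptor and a shorter soluble form, for which GENCODE M21 lists reading frames of 567 and 337 codons, and counts per gene do not tell them apart. Set against the shared chain, Il1rl1 stood at 0.0486 times Il1rap per kilobase in fresh cells (interval 0.0285 to 0.0777) and at 0.511 times Il1rap in expanded cells (0.423 to 0.616). That ratio was 10.5-fold higher in the expanded library (interval 6.29 to 18.5).

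Mast cells, group 2 innate lymphoid cells and some regulatory T cells are the usual carriers of Il1rl1. The mast cell and basophil genes Fcer1a, Ms4a2, Tpsb2, Tpsab1 and Prss34 had 0 counts in the expanded library. In the fresh library they had only 3, 8, 0, 2 and 0 counts. The list of 10 summed to 46.3 CPM in fresh and 40.5 CPM in expanded cells. These sums rested mostly on Kit and, in expanded cells, also on Mcpt8. Of the 3 measured, Mcpt8, a granule protease of basophils whose gene lies in the granzyme locus, was higher (0.0929 and 17.1 CPM). Hdc was lower (2.0 and 0.19 CPM) and Kit lay between (42.4 and 22.4 CPM). Over all genes 22.4% were at least 2-fold higher and 25.0% lower. Of 8 markers of group 2 innate lymphoid cells, 3 were higher and 3 lower (summed level 217 and 174 CPM), none at 0. The higher ones, on the side of Il1rl1, were Klrg1 (0.604 and 20.2 CPM), Il5 (0.0465 and 32.8 CPM) and Il13 (0.0929 and 33.7 CPM), and the lower ones Gata3 (130 and 55.7 CPM), Rora (71.7 and 11.6 CPM) and Il17rb (4.09 and 0.0476 CPM). Foxp3, which defines regulatory T cells, stood at 1.21 and 1.81 CPM. That list had 1 member of 6 higher and 2 lower, near the shares over all genes. Its summed level of 567 and 2091 CPM rested mostly on Ikzf2 in fresh cells (298 and 38.7 CPM). In expanded cells it rested on Il2ra (43.7 and 1913 CPM), which activated T cells also carry. The part of these cells in the level of Il1rl1 was not tested.

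Il1rn, the receptor antagonist, lies on chromosome 2 (chr2:24336860-24351491, plus strand) and was at the edge of detection. It had 14 counts (0.65 CPM) in fresh and 4 counts (0.19 CPM) in expanded cells, 3.42-fold lower with an interval of 1.07 to 14.3. Macrophages are a known source of the antagonist, and their markers summed to 968 and 3.76 CPM. Their part in its level was not tested.

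**Figure D3:**
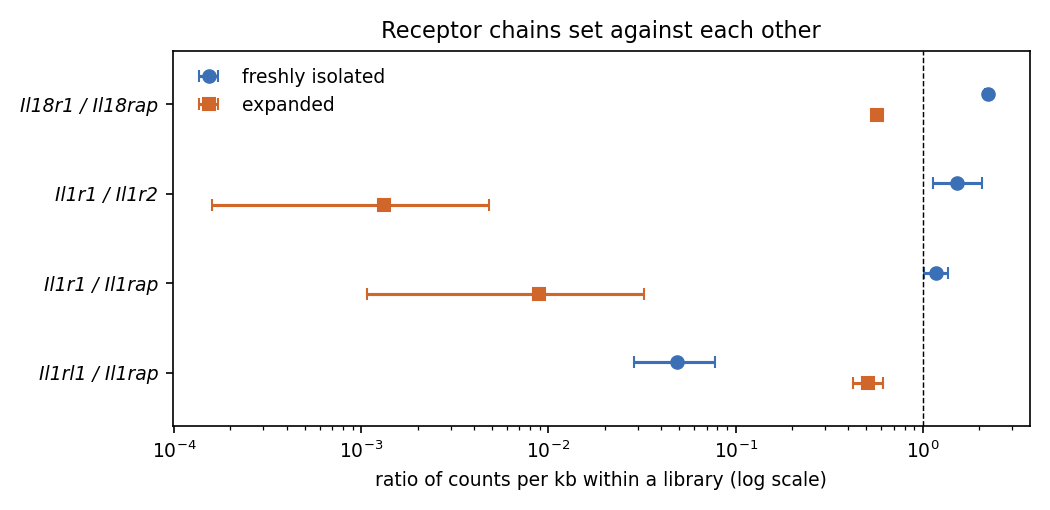
Ratio of counts per kilobase between 2 chains within each library (log scale), with exact 95% counting intervals, for freshly isolated (circles) and expanded (squares) cells; the dashed line marks equal levels. Il18r1 to Il18rap lies on either side of the line at 2.23 and 0.567, Il1r1 lies far below Il1r2 and Il1rap in the expanded library, and Il1rl1 lies closer to Il1rap there.

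Ordered by level per kilobase of the deposited gene lengths, the fresh library had Il18r1 at 78.5 CPM per kilobase, Il18rap at 35.2, Il1r1 at 2.86, Il18bp at 2.81, Il1rap at 2.43, Il1r2 at 1.88, Il1rn at 0.242 and Il1rl1 at 0.118. The intervals of Il18bp, Il1rap and Il1r2 each overlapped that of the gene above in the order, and so did that of Il1rl1. In the expanded library the order was Il18rap at 31.6 CPM per kilobase, Il18r1 at 17.9, Il1r2 at 14.4, Il1rap at 2.13, Il18bp at 1.78, Il1rl1 at 1.09, Il1rn at 0.0709 and Il1r1 at 0.0189. There the intervals of Il1rap and Il18bp overlapped, and those of Il1rn and Il1r1. The decoy Il1r2 stood sixth of the 8 in fresh and the third in expanded cells, and Il1r1 the third and last. With exon lengths from GENCODE M21, Il1r2 kept both ranks (10.05 CPM per kilobase in expanded cells), while in fresh cells Il18bp (2.63) stood above Il1r1 (2.26) and Il1rl1 above Il1rn, and in expanded cells Il18bp stood above Il1rap. The intervals of these 3 pairs overlapped.

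Of the 8 genes, 5 lie side by side on chromosome 1 with Il1rl2, the receptor for IL-36, within 467 kb and on the same strand. Along this stretch, neighbours differed in opposite directions. From Il1r2 on, the log2 folds (expanded over freshly isolated) were 2.89 for Il1r2, -6.26 for Il1r1, -1.82 for Il1rl2, 3.07 for Il1rl1, -2.13 for Il18r1 and -0.15 for Il18rap. Il1rl2 had 70 counts (3.25 CPM) and 18 counts (0.856 CPM), 3.80-fold lower (interval 2.24 to 6.78). Only 137 bases part the end of Il1rl1 from the start of Il18r1, and these 2 adjacent genes lay on opposite sides. Il18r1 was lower in the library in which Il1rl1, the gene upstream of it, was higher.

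Within 500 kb of the cluster the table lists 16 genes, of which 9 were measured. Outside the receptor genes, the kinase Map4k4 stood at 355 and 210 CPM (1.69-fold lower), the sodium-proton exchanger Slc9a2 at 0.511 and 4.04 CPM (7.91-fold higher, interval 4.21 to 16.4), and the transporter-like gene Mfsd9 at 1.67 and 2.43 CPM. The deposited span of Il1r2 overlaps by 1084 bases with Gm16894 on the other strand, which had 0 and 2 counts. That of Il1rap overlaps with Gm20319 on the other strand (1 count in each library). The whole span of Il1rn, 14632 bases, overlaps with Mir684-1 on the same strand (1 and 2 counts). Whether counting used strand is not given in the sources used here, and strand would not part Il1rn from Mir684-1. The overlaps are of whole spans with introns, and overlap of exons was not computed. How many reads such pairs share, if any, is therefore not known.

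**Figure D4:**
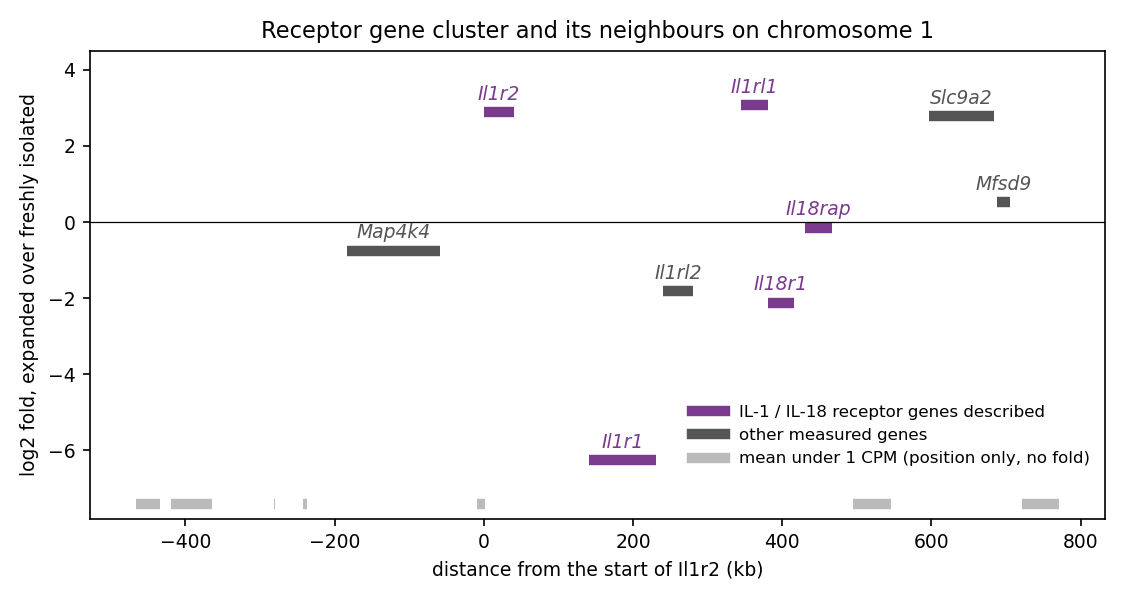
Log2 fold (expanded over freshly isolated) against distance in kb from the start of Il1r2 for genes around the receptor cluster on chromosome 1; each bar spans the deposited gene, purple for the genes described, dark grey for other measured genes and light grey at the bottom for genes with a mean under 1 CPM, for which no fold is drawn. Il1r2 (2.89) and Il1rl1 (3.07) lie above 0 between neighbours that lie below it.

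The sequences upstream of 3 genes of the cluster are shown because they hold no annotated exon and the genes lay on different sides: Il1r1 was lower, Il1rl1 higher and Il18rap nearly level. Each is the 250 bases before an annotated start, 5′ to 3′ on the plus strand, from RefSeq on build GRCm38.p6, at chr1:40224830-40225079 for Il1r1, chr1:40429320-40429569 for Il1rl1 and chr1:40515112-40515361 for Il18rap. Capitals mark matches to the motifs searched.
Il1r1: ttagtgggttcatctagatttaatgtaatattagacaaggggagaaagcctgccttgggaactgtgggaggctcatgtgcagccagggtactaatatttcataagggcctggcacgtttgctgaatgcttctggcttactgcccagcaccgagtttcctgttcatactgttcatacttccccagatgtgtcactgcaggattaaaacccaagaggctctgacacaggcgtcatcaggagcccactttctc
Il1rl1: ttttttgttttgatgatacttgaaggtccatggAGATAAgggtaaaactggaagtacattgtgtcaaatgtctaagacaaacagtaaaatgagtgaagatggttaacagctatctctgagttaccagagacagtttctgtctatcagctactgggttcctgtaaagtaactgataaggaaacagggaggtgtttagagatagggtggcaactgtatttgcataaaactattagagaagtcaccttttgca
Il18rap: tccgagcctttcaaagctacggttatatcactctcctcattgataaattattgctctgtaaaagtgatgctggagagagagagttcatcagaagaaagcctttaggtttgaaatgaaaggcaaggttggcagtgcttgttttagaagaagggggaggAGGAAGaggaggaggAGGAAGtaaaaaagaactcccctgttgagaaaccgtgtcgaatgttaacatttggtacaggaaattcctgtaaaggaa

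All 8 genes matched the RefSeq table, with 14 such windows, since some genes have several starts. The motifs searched on both strands were AP-1 (TGANTCA), the STAT site GAS (TTCNNNGAA), RUNX (TGTGGT), T-box (AGGTGTGA), the GATA factor motif with the letters AGATAA, the ETS motif with the letters AGGAAG and the NF-κB consensus, and no matches overlapped in the windows shown. The Il1r1 window above held none of them. A second Il1r1 window, at chr1:40266336-40266585, held a match to the NF-κB consensus, which was present in 3.90% of all 32851 windows. The Il1rl1 window shown held 1 GATA match (9.99% of all windows), and the Il18rap window held 2 ETS matches (29.5% of all windows). The window before Il1r2, which overlaps annotated exons and is not printed, held the GAS match TTCAAGGAA at chr1:40085982-40085990. A GAS match was present in 7.02% of all windows, and another window, before the start of Il18r1 furthest downstream, held 2. These matches describe letters and show neither binding nor use of a site.

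Among the other genes of the pathway, the cytokines were low in the expanded library. All 3 measured of 9 in the table were at least 2-fold lower there (median log2 fold -4.54), beside 25.0% over all genes. With 3 genes this count is a description. Il1b, which encodes IL-1β, had 1491 counts (69.3 CPM) against 0 after expansion, at least 394-fold lower by the near end of its interval. The folds below for genes with 0 counts in 1 library are such interval ends. Il18 had 140 counts (6.5 CPM) and 4 counts (0.19 CPM), 34.2-fold lower (interval 13.1 to 127), and Il1a had 74 and 2 counts, 36.1-fold lower (interval 9.66 to 304). Il33 had 1 and 3 counts, and the 5 genes of the list named Il1f at most 1 count. Macrophages are a main source of IL-1β, and their markers were lower in the same library (968 and 3.76 CPM in sum). Their part in the cytokine values was not tested.

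Of 14 genes for inflammasomes and cytokine processing, 2 were at least 2-fold higher, 7 lower and 5 between (median -1.27), beside 22.4% higher and 25.0% lower over all genes. By the interval end nearest to no change, the sensors Nlrc4, Naip5 and Nlrp1b were furthest down. Nlrc4 had 13.7 CPM and 0 counts (at least 77.6-fold lower), Naip5 28.2 and 1.14 CPM and Nlrp1b 6.69 and 0.19 CPM. Mefv had a larger fold than Naip5 and Nlrp1b but on few counts (73.2-fold lower, interval 12.8 to 2931). Nlrp6 (0 counts and 3.42 CPM, at least 19.5-fold higher) and Nlrp1a (1.39 and 5.04 CPM) were the higher members. Macrophage markers were lower in the same library, and their part was not tested.

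Most of the signalling genes that all these receptors share differed by less than 2-fold. Of 23 measured genes for MyD88, IRAK and TRAF6 signalling none was at least 2-fold higher, 7 were lower and 16 lay between (median -0.26). The share that was lower is near the 25.0% over all genes and is no result about the pathway. On the higher side the share over all genes was 22.4%, and that none was higher here is a description only. Furthest down were Peli2, Tifa and Irak3. Peli2, a ubiquitin ligase that acts on IRAK proteins, had 7.76 CPM and 0 counts (at least 43.7-fold lower). Tifa, an adaptor for TRAF6, stood at 7.15 and 0.0951 CPM and Irak3, an inhibitory IRAK, at 8.50 and 0.523 CPM. Named after their values were seen, Myd88 stood at 77.9 and 75.5 CPM, Irak4 at 40.1 and 44.7 CPM and Traf6 at 126 and 101 CPM, Irak1 at 183 and 119 CPM and Irak2 at 53.8 and 37.5 CPM, while Ikbkb was 3.41-fold lower (298 and 87.6 CPM). Sigirr, an inhibitory member of the receptor family, stood at 78.9 and 81.4 CPM, also named after its values were seen. Of 11 measured regulators that signalling through these and other receptors induces, 7 were lower, 4 lay between and none was higher (median -4.10). Over all genes, 25.0% were lower and 22.4% higher. Among the lower ones were Nfkbiz, a nuclear IκB protein, at 565 and 17.3 CPM and the phosphatase gene Dusp1 at 1714 and 18.6 CPM.

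The receptors for IL-12 and IL-23, cytokines that act together with IL-18 and IL-1, were listed with their kinases and STAT factors. Of 7 measured genes, 2 were higher, 2 lower and 3 between (median -0.65), shares near the 22.4% higher and 25.0% lower over all genes. Il23r, which with IL-1 signalling drives IL-17 in γδ T cells, had 275 counts (12.8 CPM) and 6 counts (0.285 CPM), 44.8-fold lower (interval 20.3 to 123). It lay on the same side as Il1r1, while both IL-12 receptor chains, Il12rb2 with 30.9 and 1084 CPM and Il12rb1 with 49.4 and 465 CPM, lay opposite to Il18r1. Jak2, a kinase these receptors use, was lower (312 and 125 CPM).

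Cytokines that lymphocytes are known to make when given IL-1, IL-18 or IL-33 lay on both sides. Of 12 measured of 14 listed, 6 were at least 2-fold higher, 5 lower and 1 between (median 0.64), beside 22.4% higher and 25.0% lower over all genes. Il17a had 114 and 0 counts (at least 37.1-fold lower) and Il17f had 81 and 0 counts (at least 26.4-fold lower), on the side of Il1r1 and Il23r. Il5 had 1 count and 689 counts (32.8 CPM) and Il13 had 2 counts and 708 counts (33.7 CPM), type 2 cytokines on the side of Il1rl1. Il4, also a type 2 cytokine (2.28 and 1.05 CPM), and Areg, a growth factor linked to IL-33 (1.90 and 0.333 CPM), both named after their values were seen, lay on the opposite side. Csf2 stood at 1.81 and 38.9 CPM. Ifng, the product linked to IL-18, lay between at 147 and 135 CPM, and the chemokine gene Xcl1 was 6.91-fold lower (119 and 17.3 CPM).

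**Figure D5:**
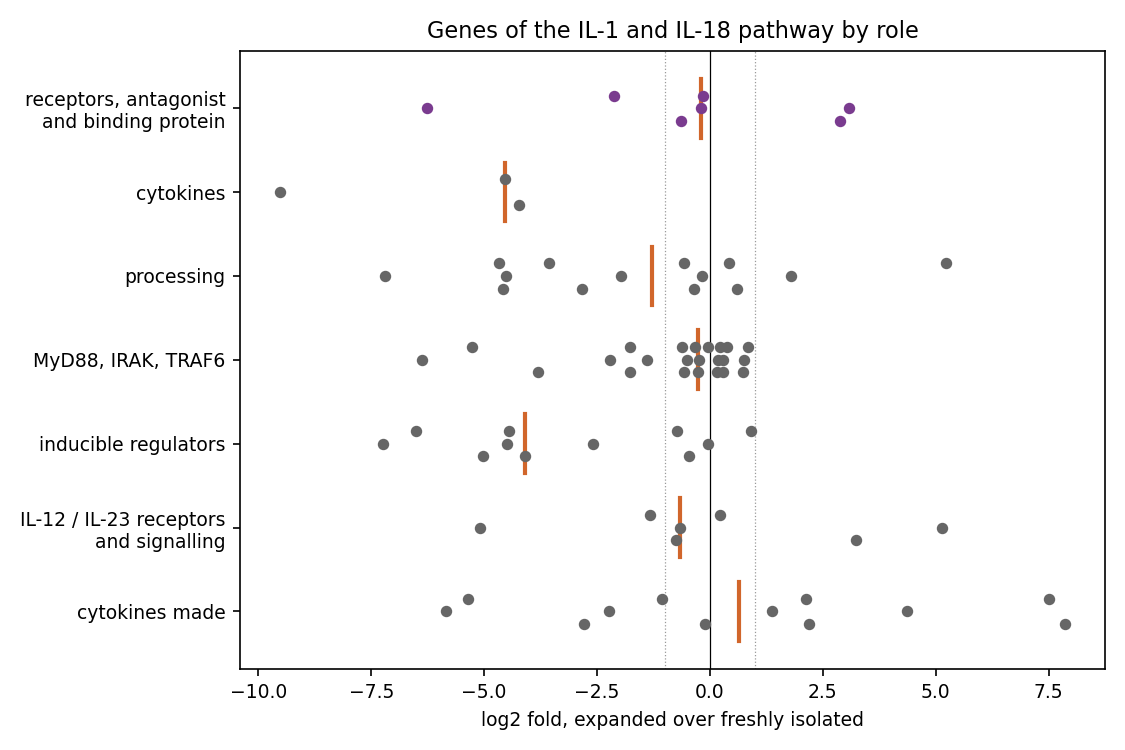
Log2 fold (expanded over freshly isolated) of each measured gene, by role in the pathway; orange ticks are list medians and dotted lines mark 2-fold. The measured receptor and binding protein genes (purple) spread from -6.26 to 3.07. All 3 cytokines lie below -4, and most MyD88, IRAK and TRAF6 genes lie near 0.

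Genes of the most similar pattern were found by the distance between log2 CPM values (with the prior count) over the 2 libraries, which is a likeness of 2 numbers only. Nearest to Il18r1 were Snhg1, Foxp1 and Add3, at distances of 0.15, 0.15 and 0.18. Among the nearest to Il1r1 were Kifc2 and Slc45a3 (0.094 and 0.13). Nearest to Il1r2 were Bag2, Cd63 and Slfn3 (0.11, 0.16 and 0.20), and to Il1rl1 were Zcchc14, Ppp1r13l and Rab39b (0.082, 0.086 and 0.14). Nearest to Il18rap were Ddx24, Coro1b and Rnf4, to Il1rap were Fam220a, Mfsd8 and Siae, and to Il18bp were Akap7, Gstk1 and Pard6a. Within a distance of 0.25 there were 5 genes for Il1r1, 7 for Il1r2, 6 for Il1rl1 and 10 for Il18r1, but 132 for Il1rap and 49 for Il18rap.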

How the data were processed

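The authors deposited raw counts of reads for each gene and library, as whole numbers, beside a gene length in kb whose making is not given in the sources used here. Per the submitters' processing notes, edgeR 3.28.1, HTSeq 0.6.0, STAR 2.6.0 and bcl2fastq 2.18.0.12 were used with builds mm10 and GRCm38; for roles, settings, annotation and strand the same holds. Counts were divided by TMM-scaled library sizes (edgeR 4.0.16 in R 4.3.3; factors 1.056 and 0.947) to give CPM. Log2 folds use a prior count of 2; folds of single genes are ratios of CPM with exact Clopper-Pearson intervals of the conditional binomial share. With 1 library per group no p-value was computed. The 11715 genes averaging 1 CPM or more (measured) were compared by size of fold. Ratios between genes use the deposited lengths. The members, gene lists, motifs and naming rule (all members; of each list the 3 measured genes furthest up and down past 2-fold, by the interval end nearest no change; measured neighbours within 500 kb; the 3 most similar genes, of which 1 is not reported here; the highest marker in each library) were chosen with earlier results of these data known. Not all genes that the naming rule picks are reported here. The calculation was tested on simulated data. Reading frames came from GENCODE M21. Alternatives were other scalings (total count, DESeq2 1.42.0 size factors, upper quartile, without the 50 most abundant genes), prior counts of 0.5 and 8, other filters and gene lengths.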

Additional observations from a re-analysis of the deposited data

How the results depend on the processing

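Of 48 alternative log2 folds of the 8 genes none changed sign, and 43 stayed within the counting interval. The others were those of Il18r1 (-2.29 by total count and -2.21 without each library's 50 most abundant genes) and Il18rap (-0.31 by total count, -0.22 by upper quartile and -0.23 without the 50 most abundant genes), and total count scaling alone moved the median of all measured genes by -0.15. Il1r1 ranged from -6.92 to -4.97, mainly with the prior count, and Il1rl1 from 2.74 to 3.17. With a mean of at least 5 CPM, which leaves out Il1rl1, 1 member was at least 2-fold and 1 at least 4-fold higher, and with no filter 3 members were at least 2-fold lower, since Il1rn was then counted. At the filter of 5 CPM the genes at least 2-fold lower numbered 0 among other receptors, 1 among cytokines, 4 in processing, 4 in MyD88 signalling and 1 among cytokines made, and 0 processing genes were higher, since fewer genes were compared. Without gene lengths, the ratio of Il18r1 to Il18rap was 1.64 in fresh and 0.416 in expanded cells, that of Il1r1 to Il1r2 5.72 and 0.00496, and that of Il1r1 to Il1rap was reversed in fresh cells at 0.698. With GENCODE exon lengths, an alternative chosen after the data were seen, Il1rl1 to Il1rap was 0.704 in expanded cells. A threshold of 3-fold, also chosen after the data were seen, gave the same counts of members. No paired analysis was possible because each group has 1 library. At this depth 0 counts allow up to 0.139 CPM in the fresh and 0.143 CPM in the expanded library (3 counts), which limits what can be said of Il1r1, Il1rn and Il1b in expanded cells.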
